A study of Mus musculus with 10 samples.

Results

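Mitochondrial carriers of the SLC25 family are inner-membrane proteins that move metabolites, nucleotides, phosphate, cofactors and iron between the cytosol and the mitochondrial matrix. In the liver they feed the urea cycle, gluconeogenesis, amino acid breakdown and oxidative phosphorylation, and the uncoupling proteins are members of the same family. The genes described here are the rows of the deposited count table whose symbol is Slc25a followed by a number, or Ucp1, Ucp2 or Ucp3. Slc25a1, Slc25a13, Slc25a15 and Slc25a20 were set apart by that rule, which left 46 of 50 such genes, among 24421 genes listed. The rule used symbols and no measured value.

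Liver poly(A) RNA was sequenced from 10 wild-type male C57BL/6 mice (C57BL/6 J in the study's methods) fed ad libitum, aged 21 weeks per the labels. The Chow group (5 mice) received standard chow, and the TM5614 group (5 mice) received chow that contained TM5614, an orally active small-molecule inhibitor of plasminogen activator inhibitor 1, at 20 mg/kg/day for 10 days. Each mouse gave 1 library. The comparison asked which hepatic transcripts differed after TM5614 feeding, at a single dose and a single time. Totals ran from 6398335 counts (Chow replicate 4) to 10874955 counts (Chow replicate 2), and all 8 hepatocyte markers were present in every library, with a summed level between 109700 and 139910 CPM (counts scaled to library size with TMM factors). Chow replicate 2 and TM5614 replicate 2 stood apart from their groups, as described below with the carriers they touch.

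Of the 46 carrier genes, 35 had enough counts to be tested. In the TM5614 livers 1 carrier was higher and 2 were lower than in the Chow livers. Slc25a22, a mitochondrial glutamate carrier, rose 1.63-fold, while Slc25a23, a calcium-regulated carrier that exchanges ATP-Mg for phosphate, fell to 0.594 of its Chow level and Slc25a37, the mitochondrial iron importer mitoferrin 1, fell to 0.635. The 3 carriers were 8.57% of those tested, beside 4.50% of all 11092 tested genes (499 genes, edgeR quasi-likelihood test, two-sided, Benjamini-Hochberg adjusted p under 0.05). By direction the carriers gave 2.86% higher beside 1.73% of all genes, and 5.71% lower beside 2.77%. These shares rest on 3, 1 and 2 genes, and the family as a whole was not tested. The same 3 carriers were the ones whose Chow and TM5614 values did not overlap, where 8.93% of all tested genes did not overlap. The median log2 fold change over the tested carriers was 0.10 beside 0.01 over all tested genes, and 21 estimates were above 0 and 14 below.

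**Figure D1:**
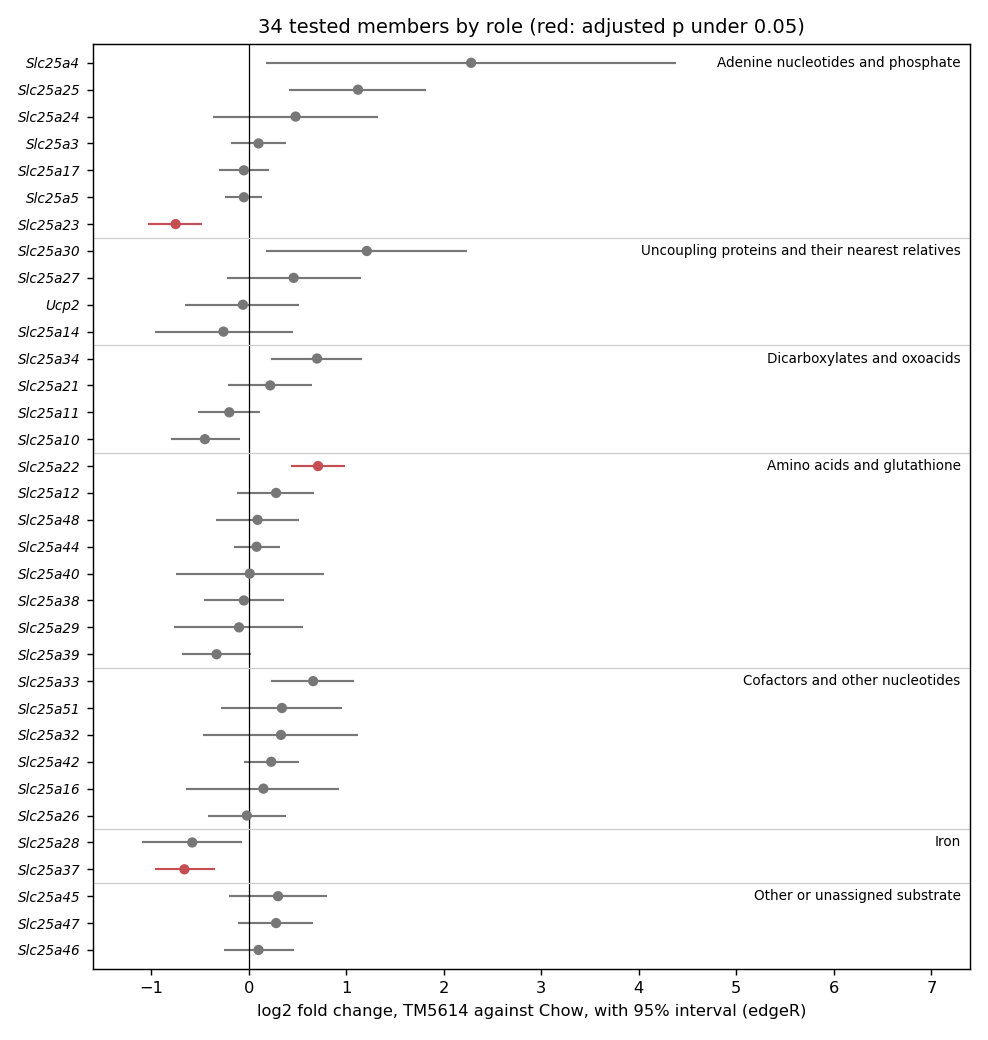
Log2 fold change of TM5614 against Chow (x axis, edgeR) for 34 of the 35 tested carriers (y axis), grouped by the substrate they carry, with 95% intervals as lines and carriers with an adjusted p under 0.05 in red. Slc25a22 lies at 0.71, Slc25a23 at -0.75 and Slc25a37 at -0.66, and Slc25a4 has the widest interval.

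The stretches upstream of a transcription start are shown here for the called carriers that held a searched motif, and for Slc25a25, which was added after its values were seen because it is the near relative of Slc25a23. The RefSeq windows (GRCm38.p6) covered 35 of the 46 carriers in 44 windows, and the 250 bases before each start were searched on both strands. Capitals mark searched motifs on either strand, and all 3 stretches are written 5′ to 3′ on the gene's own strand, the minus strand.

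Slc25a22, chr7:141435398-141435625: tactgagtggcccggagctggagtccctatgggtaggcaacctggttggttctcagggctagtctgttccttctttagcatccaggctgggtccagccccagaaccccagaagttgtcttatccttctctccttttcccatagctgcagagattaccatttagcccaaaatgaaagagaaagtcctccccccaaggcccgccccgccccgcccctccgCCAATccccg
Slc25a23, chr17:57059864-57060113: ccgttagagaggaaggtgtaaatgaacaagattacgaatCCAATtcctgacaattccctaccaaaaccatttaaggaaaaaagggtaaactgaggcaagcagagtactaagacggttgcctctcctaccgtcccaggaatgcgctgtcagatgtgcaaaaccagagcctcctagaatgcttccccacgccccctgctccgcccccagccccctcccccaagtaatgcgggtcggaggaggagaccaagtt
Slc25a25, chr2:32424067-32424316: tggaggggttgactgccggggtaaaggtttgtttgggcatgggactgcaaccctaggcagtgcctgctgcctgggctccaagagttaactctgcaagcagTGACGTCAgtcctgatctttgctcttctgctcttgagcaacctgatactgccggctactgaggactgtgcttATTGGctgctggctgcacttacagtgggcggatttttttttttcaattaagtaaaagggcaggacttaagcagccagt

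In the Slc25a22 stretch a CCAAT box begins 32 bases before the start, and the bases nearest the start are left out because an annotated exon covers them. The CCAAT box of Slc25a23 begins 211 bases before its start. CCAAT was present in 19 of the 44 carrier windows and in 33.8% of the 32851 windows of all genes. The Slc25a25 stretch holds TGACGTCA, the full cAMP response element, 150 bases before the start, as did 1.55% of all windows and 1 other carrier, Slc25a36. The second capitals in that stretch are a CCAAT box read on the other strand, 78 bases before the start. The Slc25a22 and Slc25a25 stretches lie within the bounds of their genes, upstream of a start that is internal to longer transcripts. CACGTG was in 5 carrier windows and 6.02% of all windows, whereas the direct repeat of AGGTCA spaced by 1 base (0.0335% of all windows) and TTATGTAA (0.819%) were in no carrier window. A match of letters is a description of the sequence, and no binding was measured here. Slc25a37 is not in the promoter table.

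The adenine nucleotide and phosphate carriers hold the largest fall. This group, apart from the peroxisomal carrier Slc25a17, exchanges ATP, ADP and phosphate across the inner membrane. It does so either continuously (ADP/ATP translocases and phosphate carrier) or in net amounts and under calcium control (ATP-Mg/phosphate carriers). Of its 10 genes 7 were tested, and 1 passed the test. Slc25a23 (GRCm38 chromosome 17, 57043711 to 57059863, minus strand) measured 395, 335, 350, 297 and 335 CPM in Chow replicates 1 to 5. In TM5614 replicates 1 to 5 it measured 251, 206, 183, 186 and 191 CPM. Every TM5614 mouse lay below every Chow mouse. The group means were 342 ± 35.4 and 204 ± 28.2 CPM (SD, n = 5 each), with a log2 fold change of -0.75 (SE 0.12, 95% interval -1.03 to -0.48, adjusted p = 0.00411). The annotated gene Gm17168 overlaps Slc25a23 on the other strand, and strand use in counting is not stated, so reads of the pair cannot be told apart.

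Slc25a25, another calcium-regulated ATP-Mg/phosphate carrier, had a higher estimate in the TM5614 livers that missed the threshold. Like the other carriers discussed beyond the called, the most abundant and the uncoupling genes, it was picked out after its values were seen. Its levels in the Chow mice were 71.4, 132, 169, 300 and 209 CPM. The TM5614 mice had 387, 274, 499, 374 and 375 CPM. Only Chow replicate 4 reached into the TM5614 range, and it exceeded TM5614 replicate 2. The log2 fold change was 1.12 (SE 0.31, 95% interval 0.41 to 1.82, adjusted p = 0.0622). Without Chow replicate 4, the Chow mouse nearest the TM5614 mice, it was 1.39 (adjusted p = 0.0229). With any other single library left out it was 0.91 to 1.21, with an adjusted p of 0.0603 to 0.165. DESeq2, which called 6 of 34 carriers (17.6%) beside 8.08% of all genes, gave Slc25a25 an adjusted p of 0.00711 with all 10 libraries. Naif1 overlaps the gene on the other strand. Over the 21 alternative settings the adjusted p ran from 0.00711 to 0.165, under 0.05 in 5.

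The levels of these relatives per length are given as a ratio. FPKM divides counts by transcript length and so allows levels of different genes to be set side by side. The ratio of Slc25a25 to Slc25a23 in FPKM was 0.143, 0.312, 0.382, 0.801 and 0.494 in the Chow mice. In the TM5614 mice it was 1.22, 1.05, 2.16, 1.59 and 1.56. By these values Slc25a23 was the higher of the pair in all 5 Chow livers and Slc25a25 in all 5 TM5614 livers. TM5614 replicate 2, at 1.05, lay near equality. Which gene is higher depends on the gene lengths used and on reads of the overlapping genes on the other strand. This ratio was chosen after the values of both genes were seen and was given no test. Slc25a23 alone already separated the groups, so the lack of overlap in the ratio is no separate evidence. The third tested relative, Slc25a24, was low, at 0.772 to 2.30 CPM in Chow and 1.03 to 2.98 CPM in TM5614 livers (log2 fold change 0.48, SE 0.37, adjusted p = 0.478). Slc25a41, which lies 2056 bases from Slc25a23 on the same strand, had 0 counts in all 10 libraries.

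**Figure D2:**
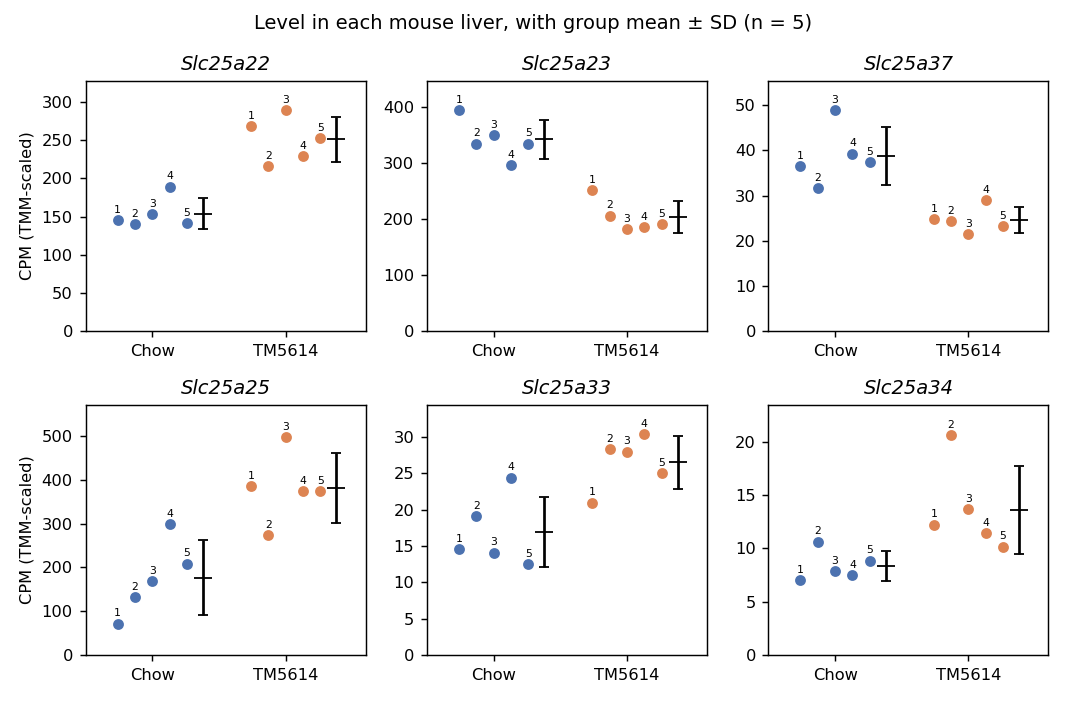
CPM in each mouse (y axes from 0, each panel with its own scale) for 6 carriers in the Chow and TM5614 groups (x axis), with 1 point per mouse marked by its replicate number and a black bar for the group mean ± SD (n = 5). The groups do not overlap for Slc25a22, Slc25a23 and Slc25a37, and for Slc25a25 Chow replicate 4 at 300 CPM lies above TM5614 replicate 2 at 274 CPM.

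Slc25a5 and Slc25a3, an ADP/ATP translocase and the phosphate carrier, supply oxidative phosphorylation with its substrates and were among the most abundant carriers. Slc25a5, the translocase form found in most tissues, measured 300, 290, 320, 299 and 314 CPM in Chow and 289, 297, 298, 288 and 299 CPM in TM5614 livers. It varied least of the tested carriers within each group, with a coefficient of variation of 3.93% and 1.84%. Its log2 fold change was -0.05 (SE 0.08, 95% interval -0.24 to 0.14, adjusted p = 0.755). For Slc25a3, the phosphate carrier, the Chow values were 224, 347, 300, 318 and 268 CPM and the TM5614 values 293, 339, 305, 314 and 306 CPM. All TM5614 values lay inside the Chow range, and the log2 fold change was 0.10 (SE 0.12, 95% interval -0.18 to 0.38, adjusted p = 0.671). One annotated pseudogene is named for Slc25a5, and counting may have split reads between them.

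Slc25a4, the translocase form of heart and skeletal muscle, owed its large estimate to 1 library. It measured 2.43, 2.70, 2.82, 2.06 and 6.53 CPM in Chow livers and 2.58, 68.4, 3.78, 3.54 and 4.52 CPM in TM5614 livers. TM5614 replicate 2 stood far above the other 9 mice. The log2 fold change was 2.28 (SE 0.91, adjusted p = 0.188), and without TM5614 replicate 2 it was 0.10. The summed level of 10 skeletal muscle markers was 3685 CPM in TM5614 replicate 2 and 58.7 CPM in TM5614 replicate 3. In the other 8 libraries it lay between 0.644 and 5.26 CPM. The ratio of Slc25a5 to Slc25a4 in FPKM was 3.71 in TM5614 replicate 2 and between 41.1 and 124 in the other 9 livers.

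**Figure D3:**
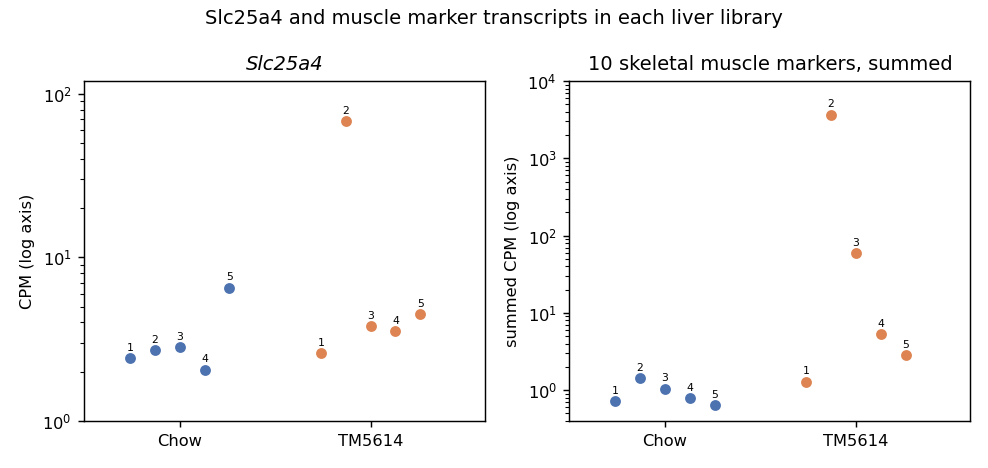
Slc25a4 in CPM (left, log axis) and the summed CPM of 10 skeletal muscle markers (right, log axis) in each mouse by group (x axis), 1 point per mouse with its replicate number. TM5614 replicate 2 is highest in both panels, at 68.4 CPM for Slc25a4 and 3685 CPM for the markers.

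The uncoupling proteins dissipate or regulate the proton gradient of the inner membrane, and Ucp1 is the thermogenic form of brown fat, Ucp3 a form of skeletal muscle and Ucp2 the form of macrophages and many other cells. Ucp1 had 12 counts in Chow replicate 5, 2 in TM5614 replicate 3 and 0 in the other 8 libraries. Chow replicate 5 also held 28 counts of Adipoq, the fat cell hormone adiponectin, where the other Chow libraries held 1 each. TM5614 replicate 2 held more, 57 counts of Adipoq, and no Ucp1. The summed level of 7 adipose markers was 29.2 CPM in Chow replicate 5 and 8.37 to 12.7 CPM in the other Chow libraries. In the TM5614 libraries it was 24.7 to 94.3 CPM, highest in replicate 2. None of the markers was at 0 in all libraries, and 2 passed the filter. Of these, 1 had an adjusted p under 0.05 in edgeR and 1 in DESeq2. The marker Cidec had 22 to 77 counts in Chow and 129 to 375 counts in TM5614 libraries. In TM5614 replicates 1, 3, 4 and 5 Adipoq had only 0, 11, 1 and 2 counts. The part of fat cells in the Ucp1 counts was not tested. Ucp3 had 40 counts in TM5614 replicate 2, the library with the muscle markers, 5 in Chow replicate 5, 2 in TM5614 replicate 4 and 0 elsewhere. Neither gene passed the filter, and no fold is given. Of the 6 genes in this group 4 were tested and none passed in edgeR or DESeq2, with 1 at an unadjusted p under 0.05 in edgeR, a level that 20.4% of all tested genes reached.

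Ucp2 (log2 fold change -0.06, SE 0.26, 95% interval -0.65 to 0.52, adjusted p = 0.906) showed no difference beyond the spread between mice. It measured 14.2, 27.4, 12.9, 10.1 and 23.1 CPM in Chow livers and 12.1, 20.9, 17.7, 17.5 and 16.3 CPM in TM5614 livers. The highest values were those of Chow replicates 2 and 5. Those libraries also had the highest summed level of 9 Kupffer cell and macrophage markers, 211 and 205 CPM, where the other 3 Chow libraries had 66.5 to 122 CPM and the TM5614 libraries 70.4 to 149 CPM. All 9 markers passed the filter, none was at 0, and none passed in edgeR or DESeq2 or had an unadjusted p under 0.05 in edgeR (0 of 9). None of the 9 estimates was higher in the TM5614 livers. The part of these cells in the Ucp2 level was not tested. In bulk tissue, fewer cells of a type and less RNA per cell cannot be told apart. Dnajb13 overlaps Ucp2 on the other strand.

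Among the near relatives of the uncoupling proteins, Slc25a30 had the highest estimate. Its Chow values were 10.4, 1.16, 8.46, 6.02 and 8.10 CPM and its TM5614 values 9.48, 10.4, 18.2, 28.2 and 12.4 CPM. The log2 fold change of 1.21 (SE 0.45, 95% interval 0.18 to 2.24, adjusted p = 0.156) missed the threshold, and Chow replicate 2, at 1.16 CPM, was the lowest of the 10. Slc25a14 and Slc25a27 were tested too, with log2 fold changes of -0.26 and 0.46 and adjusted p of 0.653 and 0.399.

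Among the amino acid and glutathione carriers, which include those that bring glutamate and aspartate to the matrix enzymes and glutathione to the matrix, 8 of 10 were tested and 1 passed. Slc25a22 (chromosome 7, 141429744 to 141437892, minus strand) takes up glutamate together with a proton. In the Chow mice it measured 145, 141, 153, 189 and 142 CPM. The TM5614 mice had 268, 216, 290, 229 and 252 CPM. Every TM5614 mouse lay above every Chow mouse, and the nearest pair was TM5614 replicate 2 and Chow replicate 4. The group means were 154 ± 20.3 and 251 ± 29.8 CPM (SD, n = 5 each), and the log2 fold change was 0.71 (SE 0.12, 95% interval 0.43 to 0.99, adjusted p = 0.00652). Slc25a18, the other glutamate carrier, had at most 1 count in any library. Slc25a12, an aspartate/glutamate carrier, had a log2 fold change of 0.28 (SE 0.17, adjusted p = 0.379).

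Slc25a39, a carrier needed for mitochondrial glutathione import, was the second most abundant carrier. Its Chow values were 392, 651, 430, 453 and 361 CPM, and its TM5614 values 411, 363, 330, 366 and 351 CPM. The groups overlapped, and Chow replicate 2 was the highest of all. The log2 fold change was -0.33 (SE 0.15, 95% interval -0.68 to 0.02, adjusted p = 0.251). Without Chow replicate 2 it was -0.17, and with GC content and length taken out it was -0.04. The remaining 5 tested genes of the group, Slc25a29, Slc25a38, Slc25a40, Slc25a44 and Slc25a48, had log2 fold changes from -0.10 to 0.09. Slc25a40, the relative of Slc25a39, had 0.01 (SE 0.33, adjusted p = 0.989) and a level of only 1.06 to 4.93 CPM.

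Iron enters the matrix through the mitoferrins, and both of these genes had lower estimates in the TM5614 livers. Slc25a37 (chromosome 14, 69241848 to 69285112, minus strand), the form known for its role in developing red cells, measured 36.5, 31.7, 49.0, 39.3 and 37.4 CPM in Chow and 24.8, 24.4, 21.6, 29.0 and 23.2 CPM in TM5614 livers. The highest TM5614 value was below the lowest Chow value. The means were 38.8 ± 6.34 and 24.6 ± 2.78 CPM (SD, n = 5 each), with a log2 fold change of -0.66 (SE 0.13, 95% interval -0.96 to -0.35, adjusted p = 0.0161). Without TM5614 replicate 3 the log2 fold change was -0.61 and the adjusted p 0.0600. The other 20 alternative settings left it under 0.05. Gm27223 and Gm31748 overlap the gene on the other strand, with the same limit as above.

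Since Slc25a37 is known from red cell precursors, erythroid markers are given beside it. The summed level of 7 such markers was 39.7 to 89.9 CPM in Chow and 34.7 to 54.8 CPM in TM5614 libraries. Nearly all of it was Alas2, the erythroid heme synthesis enzyme, the 1 marker that passed the filter, and the 4 globin genes of the list were at 0 counts in all 10 libraries. The part of erythroid cells in the Slc25a37 difference was not tested. Slc25a28, mitoferrin 2 of non-erythroid cells, measured 23.3, 39.6, 19.1, 21.1 and 17.2 CPM in Chow and 19.2, 19.3, 14.2, 13.4 and 14.6 CPM in TM5614 livers. The groups overlapped, and the log2 fold change of -0.58 (SE 0.22, 95% interval -1.10 to -0.07, adjusted p = 0.173) did not pass. Without Chow replicate 2, the highest mouse, it was -0.33 (adjusted p = 0.172).

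Of the dicarboxylate and oxoacid carriers, which link the Krebs cycle to cytosolic malate and oxoglutarate, 4 of 5 were tested and none passed in edgeR, while 2 had an unadjusted p under 0.05 (20.4% of all genes) and DESeq2 called 1 (8.08% of all genes). Slc25a10, the dicarboxylate carrier, measured 253, 405, 304, 256 and 238 CPM in Chow and 241, 204, 180, 231 and 215 CPM in TM5614 livers. Only TM5614 replicate 1 reached the Chow range (log2 fold change -0.45, SE 0.15, 95% interval -0.80 to -0.09, adjusted p = 0.132). With GC content and length taken out it was -0.17, and without Chow replicate 2 it was -0.30. Slc25a11, the oxoglutarate/malate carrier, had -0.20 (SE 0.14, adjusted p = 0.419). Slc25a34, whose substrate is less settled, measured 7.03, 10.6, 7.83, 7.45 and 8.83 CPM in Chow and 12.2, 20.6, 13.6, 11.4 and 10.2 CPM in TM5614 livers. Its single overlap was TM5614 replicate 5 below Chow replicate 2, and its log2 fold change was 0.70 (SE 0.20, 95% interval 0.23 to 1.16, adjusted p = 0.0787).

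The carriers of cofactors and other nucleotides import coenzyme A, NAD, folate and pyrimidine nucleotides. Of 8 genes 7 were tested and none passed in edgeR, with a median log2 fold change of 0.23, while 1 had an unadjusted p under 0.05 (20.4% of all genes) and DESeq2 called 1 (8.08% of all genes). The nearest to the threshold was Slc25a33, a pyrimidine nucleotide carrier. It measured 14.6, 19.1, 14.1, 24.4 and 12.5 CPM in Chow and 21.0, 28.3, 28.0, 30.4 and 25.0 CPM in TM5614 livers. Only Chow replicate 4 exceeded any TM5614 mouse, and the log2 fold change was 0.66 (SE 0.18, 95% interval 0.23 to 1.08, adjusted p = 0.0689). The other pyrimidine nucleotide carrier, Slc25a36, had 0 to 12 counts per library and was not tested.

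The most abundant carrier per length was Slc25a47, a carrier known for its expression in hepatocytes. It measured 499, 891, 617, 669 and 612 CPM in Chow and 714, 625, 767, 1023 and 852 CPM in TM5614 livers. The groups overlapped widely, and the log2 fold change was 0.28 (SE 0.17, 95% interval -0.11 to 0.66, adjusted p = 0.375). With GC content and length taken out it was 0.51 (adjusted p = 0.0660). The annotated gene begins 162 bases from the start of Slc25a29, which lies on the opposite strand. Slc25a29, a carrier of basic amino acids, had a log2 fold change of -0.10 (SE 0.29, adjusted p = 0.856).

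Across the family, levels per length spanned a wide range. The mean over the 10 livers was 454 FPKM for Slc25a47, 243 for Slc25a39, 228 for Slc25a5, 197 for Slc25a3 and 80.2 for Slc25a23. The fifth place depended on the group, since the Chow mean of Slc25a23 was 101 FPKM, whereas its TM5614 mean of 59.7 FPKM lay below those of Slc25a25 (88.9) and Slc25a22 (86.8). The ranges over the 10 mice overlapped between Slc25a47 and Slc25a39, between Slc25a39 and Slc25a5 and between Slc25a5 and Slc25a3, whereas the lowest Slc25a3 value (147 FPKM) lay above the highest Slc25a23 value (117 FPKM). These 5 genes made up 67.7% to 77.4% of the summed FPKM of the carriers in each library. In all, 4 carriers had a mean over 100 FPKM, 14 lay from 10 to 100, 15 from 1 to 10 and 13 under 1. The carriers together took 0.331% ± 0.0258 of all counts in Chow and 0.362% ± 0.0134 in TM5614 libraries (SD, n = 5 each), and these shares overlapped between the groups.

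**Figure D4:**
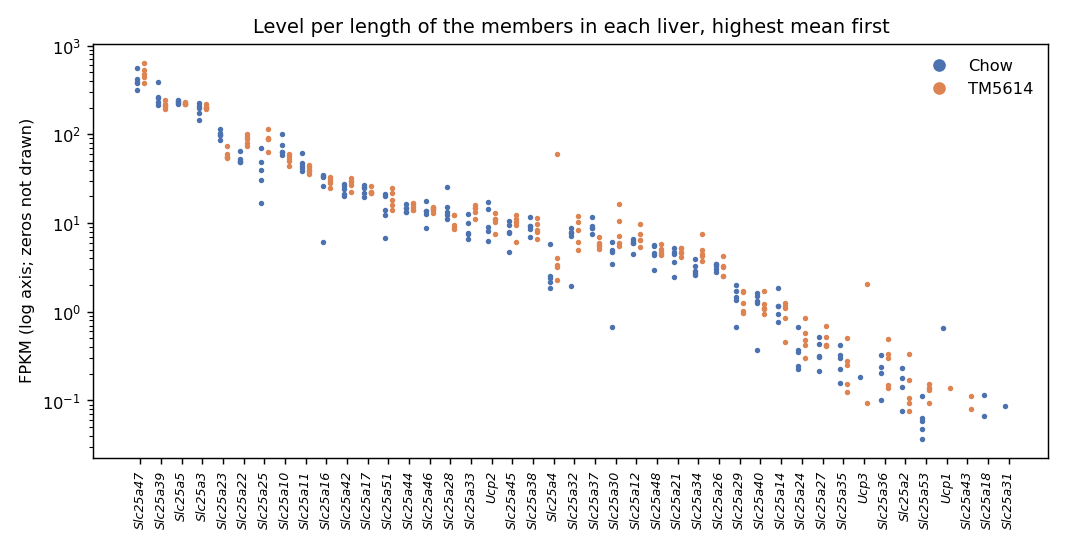
FPKM in each mouse (y axis, log scale, values of 0 not drawn) of 43 carriers with a count in any library (x axis), ordered by their mean, with 1 point per mouse coloured by group. Slc25a47 leads at a mean of 454 FPKM, and the highest and lowest tested carriers differ 1067-fold.

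Of the 11 carriers that did not pass the filter, 10 had at most 12 counts in any library, and the exception was Ucp3 with 40 in TM5614 replicate 2. Slc25a41 and Slc25a54 had 0 counts in all 10 libraries, and Slc25a18, Slc25a31, a translocase known from testis, and Slc25a43 had at most 2. A library with 0 counts allows up to 3 by counting error alone. Slc25a2, Slc25a35, Slc25a36 and Slc25a53 had at most 4, 9, 12 and 4 counts in any library, and the other 2 were Ucp1 and Ucp3, described above. Slc25a43 lies 18448 bases from Slc25a5 on the same strand, so that one of the lowest carriers is the chromosomal neighbour of one of the highest.

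Chow replicate 2 departed from the other Chow mice for many carriers at once. In that library 6 of the 35 tested carriers lay more than 1 log2 unit from the median of the other Chow libraries, the lowest being Slc25a16 at -2.42, where the other 9 libraries had 0 or 1 such carrier each. Its deviations rose with the GC content of the transcript, with a Pearson correlation of 0.69 across the 35 carriers, which share the library, while the other libraries gave -0.32 to 0.30. For the 96.7% of tested genes with known GC content and length, deviations were taken from the median of all 10 libraries. GC content and length accounted for 46.0% of the variance of these deviations in Chow replicate 2. In the other libraries they accounted for 0.8% to 11.5%. Slc25a16, a carrier tied to coenzyme A, had 19.5 CPM in Chow replicate 2 and 84.0 to 110 CPM in the other Chow mice. Without Chow replicate 2, Slc25a22 and Slc25a23 and Slc25a37 all still passed, and Slc25a33 (log2 fold change 0.71, adjusted p = 0.0290) and Slc25a34 (0.79, adjusted p = 0.0252) passed as well, while 9.24% of all genes did.

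**Figure D5:**
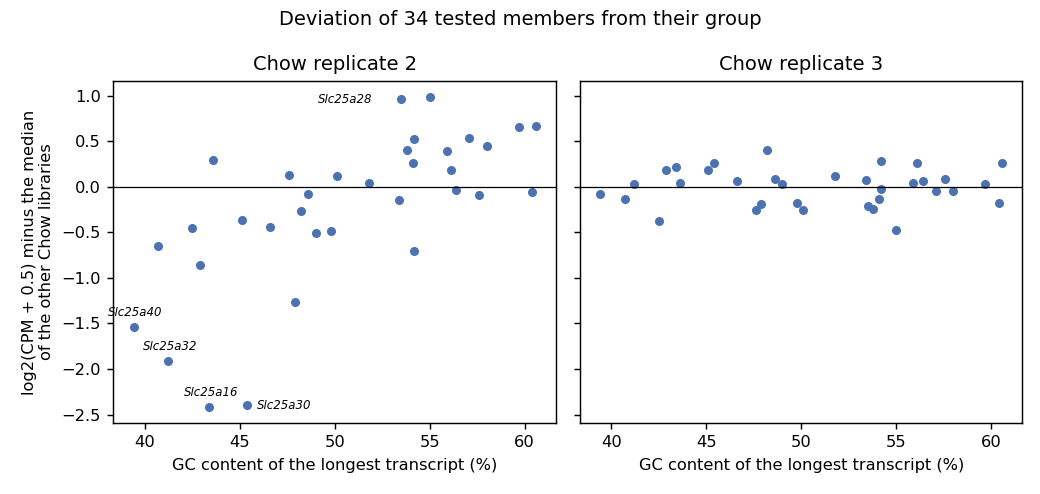
Deviation of 34 of the 35 tested carriers from the median of the other Chow libraries (y axis, log2 of CPM + 0.5) against the GC content of its longest transcript in percent (x axis), in Chow replicate 2 (left) and Chow replicate 3 (right). In Chow replicate 2 carriers of low GC content such as Slc25a16 (-2.42) lie lowest, and Chow replicate 3 shows no such slope (Pearson correlation 0.03).

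Genes that work with the carriers were read from the same fit, in 4 lists. Over all tested genes 20.4% had an unadjusted p under 0.05 in edgeR and 8.08% were called in DESeq2. Of 19 tested other transporters of the inner membrane, such as the pyruvate carrier and the calcium uniporter, none passed in edgeR, 2 had an unadjusted p under 0.05 and DESeq2 called 1, and their median log2 fold change was 0.07 beside 0.01 for all genes. The 15 genes of the TOM and TIM22 import route, which inserts carriers into the inner membrane, had a median of -0.18, with 0 called in edgeR, 1 at an unadjusted p under 0.05 and 0 called in DESeq2. The 17 enzymes at either end of the carriers' shuttles had a median of -0.00, with 0 called in edgeR, 5 at an unadjusted p under 0.05 and 1 called in DESeq2. Of 12 regulators of mitochondrial gene expression 1 passed, where 4.50% of all genes did. That gene was Ppargc1b, a coactivator of mitochondrial biogenesis, which fell in the TM5614 livers, with 20.3 ± 6.18 CPM in Chow and 11.5 ± 1.62 CPM in TM5614 (SD, n = 5 each). Its log2 fold change was -0.83 (SE 0.21, adjusted p = 0.0417), and the groups did not overlap.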

How the data were processed

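Livers of 5 Chow and 5 TM5614 mice were compared, and titles of the samples gave groups and replicate numbers. According to the methods of the study, single-end reads were aligned with STAR to mm10. HOMER is also named in the submitters' processing notes. Versions, annotation and strand use are not given in the sources used here. Raw whole-number counts for each gene symbol were deposited by the authors. The FPKM values deposited by the authors are these counts scaled by gene length and size factor, and served here only for levels of different genes. Deposited regularised log values and the authors' own comparison table (fold changes and p-values) were not used.

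Counts were filtered with filterByExpr and scaled with TMM, and 11092 genes were tested with edgeR 4.0.16 in R 4.3.3 (glmQLFit and glmQLFTest, group as the only term, Benjamini-Hochberg adjustment over all tested genes, threshold 0.05). SE was the absolute log2 fold change over the root of F, and 95% intervals used a t quantile with 8 residual degrees of freedom. A prior count of 2 was set for log2 CPM. The alternatives were DESeq2 1.42.0, voom with quality weights (limma 3.58.1), other scalings and filters, a replicate block, a GC and length correction, and each library left out. The fits were tested on simulated data. Gene positions came from GENCODE M21. Counting limits cover counting error only.

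The carriers, the lists and the alternatives were chosen with earlier results of these data known. Called carriers, those whose groups did not overlap, the 5 most abundant and the uncoupling proteins were described in full, and other named carriers were chosen after their values were seen. The values of 1 tested carrier are not reported here, and it is not drawn in the plots.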

Additional observations from a re-analysis of the deposited data

Results flagged for a closer look

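Within-group values of the 35 tested carriers were searched for a highest or lowest mouse far from the other 4. Of 70 groups examined, 8 held such a mouse. For independent, normally distributed values chance would give about 5% of groups, or 3.5. The groups share the same 10 libraries and CPM values can be skewed, so 3.5 is only a rough guide. Chow replicate 2 accounted for 4 of the 8. In that library Slc25a16 measured 19.5 CPM (84.0 to 110 in the other Chow mice), Slc25a32, a folate and FAD carrier, 5.79 CPM (21.5 to 26.1), Slc25a40 1.06 CPM (3.64 to 4.69) and Slc25a28 39.6 CPM (17.2 to 23.3). Slc25a4 was picked in both groups, at 68.4 CPM in TM5614 replicate 2 (2.58 to 4.52 in the others) and 6.53 CPM in Chow replicate 5 (2.06 to 2.82). Slc25a22 measured 189 CPM in Chow replicate 4 (141 to 153 in the other Chow mice), still below all TM5614 mice. Slc25a17, the peroxisomal carrier of the family, measured 43.5 CPM in TM5614 replicate 4 (36.3 to 38.2 in the others).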

How the results depend on the processing

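Slc25a22 (log2 fold change 0.65 to 0.80) and Slc25a23 (-0.84 to -0.64) kept their direction and an adjusted p under 0.05 in all 21 alternatives, and Slc25a37 (-0.78 to -0.56) in 20, all but the fit without TM5614 replicate 3. The number of called carriers was 3, where 4.50% of all genes were called. It became 6 with DESeq2 (of 34 tested, 8.08% of all genes) and 7 with voom and quality weights (12.5% of all genes). With the replicate block it was 6 (5.00% of all genes), and with GC content and length taken out 5 (6.46%). Without both Chow 2 and TM5614 2 it was 8, where 11.1% of all genes were called. With single libraries left out it was 2 to 5. It was 5 without Chow replicate 2 (9.24% of all genes) or without Chow replicate 4 (3.14%) and 2 without TM5614 replicate 3 (2.09%). The added carriers were drawn from Slc25a25, Slc25a30, Slc25a33, Slc25a34 and Slc25a47, all higher. For all genes the count of 499 became 908 with DESeq2, 1386 with voom, 1230 without the pair, 184 at an adjusted p of 0.01, and 235 to 1031 with single libraries left out. Carriers without overlap numbered 3, against 5 with library totals alone, 6 without the pair and 3 to 5 with single libraries left out. The share of all genes without overlap was taken only in the main setting (8.93%), so the other counts have no such comparison. The cause of these changes was not tested. Estimates near 0 changed sign: Slc25a5 (0.00) and Slc25a3 (-0.12) with GC content and length taken out, Slc25a16 (-0.06 with voom, -0.06 without the pair, -0.12 to 0.25 with single libraries left out) and Ucp2 (0.15 with voom, 0.00 with the block, 0.04 with GC content and length taken out, 0.05 without the pair, -0.21 to 0.14 with single libraries left out). Same-number correlations of deviations ran from 0.032 to 0.318, and 1 of 5 Chow libraries correlated best with its own number. With 5 mice per group this cannot show whether the replicate numbers pair the mice. The block gave 555 called genes. Other scalings moved the median of all genes from 0.013 to at most 0.062. Carriers with few counts, such as Slc25a24 and Slc25a40, are limited by depth.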
